A study of Mus musculus with 9 samples.

Results

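The 64 genes described here belong by name to the common protein families of pre-mRNA splicing in the mouse. They are 12 Snrp genes (proteins of the small nuclear ribonucleoproteins, or snRNPs), 9 Sf3 genes (splicing factors 3a and 3b), 13 Prpf genes (pre-mRNA processing factors), 10 Srsf genes (serine and arginine rich splicing factors) and 20 Hnrnp genes (heterogeneous nuclear ribonucleoproteins). Membership follows the gene symbol: 65 of the 16070 listed genes matched these family names, and Snrpn, an imprinted gene, was left out. It takes in Snrpert, annotated as a processed pseudogene and nearly identical to Snrpe. Counts of Snrp genes below include Snrpert, though its reads may be shared with Snrpe. All 64 reached at least 1 FPKM in at least 3 libraries, as did 11850 genes in all. FPKM is a fragment count made relative to the length of the transcript and the size of the library.

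RNA was measured in 9 libraries from C57BL/6 mouse embryos cultured in vitro and taken 4.5 days after microinjection, around the late blastocyst stage. The groups were 3 wild-type libraries (WT), 3 labelled as carrying histidine in place of arginine 17 of histone H3 (H3R17H) and 3 labelled Carm1-/-, without the arginine methyltransferase CARM1 that acts on that residue. The series title names CRISPR-Cas9 editing, and the guides, the editing rate and any mosaicism of the embryos are not analysed here. The labels describe the material both as whole E4.5 embryos and as derived from single cells, and nothing says that libraries came from separate embryos, so a p-value measures only how these libraries scatter, which may be technical. In such mixed RNA, fewer cells of a type and less RNA per cell cannot be told apart.

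Carm1 RNA and the column names of the deposited table went against the labels. The columns of the libraries titled H3R17H are named Carm and those of the libraries titled Carm1-/- are named Hist, so the 2 edited groups may be exchanged. WT libraries held 8.86, 7.08 and 6.65 FPKM of Carm1, against 1.88, 0.02 and 1.22 FPKM in replicates 1 to 3 labelled H3R17H and 6.44, 12.7 and 9.52 FPKM in the Carm1-/- labelled ones. Directions below therefore refer to the label of a library and not to a known genotype. The sexes were unequal too: 4 Y-linked genes summed to 30.7 to 35.7 FPKM in WT and to 36.6 and 28.1 in replicate 1 of the 2 edited groups, against at most 0.008 in the other 4 edited libraries. Of 18 trophectoderm markers in the table, which mark the outer layer of the blastocyst, the summed FPKM was 5937 to 8966 in WT and 1820 to 4861 in the H3R17H-labelled libraries. It was 9623 in replicate 1 labelled Carm1-/- and 2242 and 2796 in replicates 2 and 3, and Hand1 was the marker listed at 0 in all WT libraries. Markers of epiblast (12 in the table) summed to 4995 to 10278 FPKM and markers of primitive endoderm (11) to 91.6 to 226 FPKM over all libraries. Of 10 oocyte markers 5 were in the table, and of 10 cumulus and granulosa markers 1 was.

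Splicing removes introns in steps that are carried out by the spliceosome, a machine built from snRNPs and many other proteins. Each of the main spliceosomal snRNAs except U6, which carries a ring of Sm-like proteins, is wrapped by a ring of Sm proteins. The SF3A and SF3B complexes belong to the U2 snRNP that recognises the branch point. The PRPF proteins act in the tri-snRNP and in the steps of activation and catalysis. SR proteins bind exons and generally favour their inclusion, while hnRNP proteins coat nascent RNA and often repress the use of a site. CARM1 is linked to this machinery because several splicing proteins are known as its substrates, among them the products of Snrpb, Snrpc and Sf3b4, and the Sm proteins are methylated by another arginine methyltransferase, PRMT5.

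In WT the members as a set were abundant and steady. Their median WT level was 35.6 FPKM, against 5.98 FPKM over all tested genes, with 14 members at 100 FPKM or more and 15 below 10 FPKM. The Snrp family was the highest by median (125 FPKM), followed by Sf3 (60.7), Srsf (37.9), Hnrnp (29.4) and Prpf (9.65). Snrpe, an Sm core gene, led with 357, 592 and 467 FPKM in WT replicates 1 to 3. Hnrnpa1, which binds nascent RNA and regulates splice site choice, stood at 434, 356 and 579 FPKM. Hnrnpk, a protein that binds C-rich sequence, stood at 310.3, 281 and 312 FPKM. The SF3B subunit gene Sf3b5 stood at 319, 313 and 266 FPKM and the Sm core gene Snrpd2 at 264, 324 and 309.6 FPKM. Given the WT SDs of 118, 113, 17.4, 29 and 31.6 FPKM, the order within the first 2 and within the other 3 is not resolved, while every WT value of Snrpe and Hnrnpa1 lay above those of the other 3. The lowest member was Prpf40b at a WT mean of 1.04 FPKM, and Hnrnpul2 (2.03), Prpf19 (2.08) and Sf3a2 (3.26) followed. Subunits of a complex were not level with each other: within SF3A, Sf3a2 at 3.26 ± 1.3 FPKM stood beside Sf3a1 at 24.2 ± 1.4 and Sf3a3 at 94.7 ± 4.37 FPKM (mean ± SD, n = 3), with no overlap between their libraries. The median SD of a member on the log2(FPKM + 1) scale was 0.164 in WT, 0.218 in the H3R17H-labelled libraries and 0.357 in the Carm1-/- labelled ones. Over all tested genes it was 0.285, 0.367 and 0.534, and among genes of at least 10 FPKM in WT the members were again the steadier (0.144 against 0.233 in WT). The median level of these members was also higher (60.7 against 34.2 FPKM). By family the WT value was 0.128 for Hnrnp, 0.131 for Sf3, 0.157 for Srsf, 0.219 for Prpf and 0.231 for Snrp. In WT the Snrp genes were thus no steadier than other genes of at least 10 FPKM. Their median SD was below that of such genes in the H3R17H-labelled libraries (0.192 against 0.298) and the Carm1-/- labelled ones (0.328 against 0.44).

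**Figure D1:**
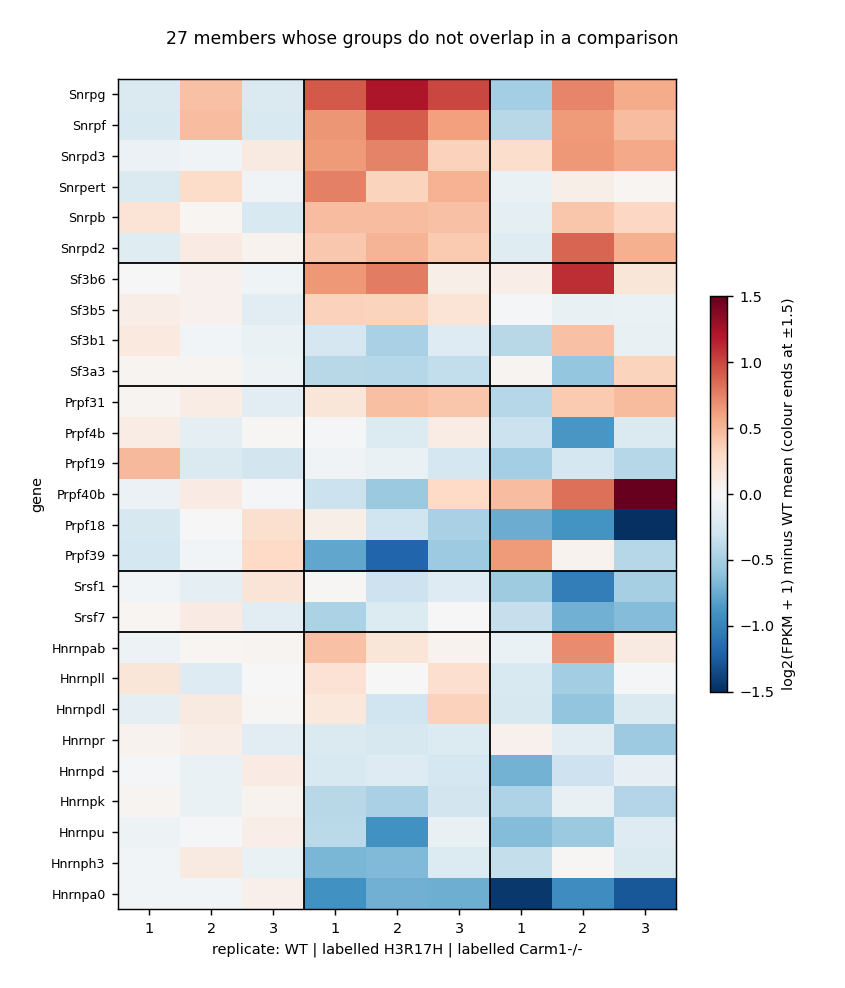
Each row is one of the 27 members whose libraries do not overlap between groups in at least 1 comparison, and each column is a library; colour gives log2(FPKM + 1) minus the WT mean, and black lines part the families and the 3 groups. The 6 Snrp rows at the top are red in the 3 libraries labelled H3R17H, while replicate 1 labelled Carm1-/- is blue for most of them.

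H3R17H vs WT, the first comparison, asked what the histone substitution changes, if the label holds. The members were split: 31 had higher and 33 lower values, with a median difference of -0.035 on the log2(FPKM + 1) scale, against -0.032 over all tested genes. No member passed in limma (adjusted p under 0.05 over all tested genes, which 0.0% of all tested genes reached). Unadjusted p was under 0.05 for 5 higher members, 7.81% of 64 against 6.41% of all tested genes, and 2 lower members, 3.12% against 7.75%. Libraries of the 2 groups did not overlap for 10 higher members (15.6% against a background of 13.3%) and 9 lower members (14.1% against 15.6%). The members' shares were near the background in 3 of these 4 counts and below it for the lower members at unadjusted p under 0.05. The families differed in sign: all 12 Snrp genes had higher values (median 0.50, from 0.19 to 1.04), while 13 of 20 Hnrnp genes (median -0.13) and 8 of 10 Srsf genes (median -0.12) had lower values. Single libraries weighed on the latter: without replicate 2 labelled H3R17H the Srsf genes were 5 higher and 5 lower (median 0.002), and the Hnrnp median was -0.20 without WT replicate 2 and -0.04 without WT replicate 3. With limma on only the groups compared, 0.945% of all genes passed as higher and 1.08% as lower, and 1 member passed, Snrpg (adjusted p = 0.0434).

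Carm1-/- vs WT, the second comparison, asked what the missing enzyme changes, if the label holds, and it shares its WT libraries with the first. Of 64 members 41 had lower and 23 higher values, with a median difference of -0.10 against -0.04 over all tested genes. No member passed (0.0% of all tested genes in limma), and the lowest adjusted p was 0.196, for Hnrnpa0. Unadjusted p was under 0.05 for 2 higher members (3.12% against 5.25% of all tested genes) and 4 lower members (6.25% against 6.19%). Groups did not overlap for 3 higher (4.69% against 6.91%) and 9 lower members (14.1% against 9.71%). Srsf (9 of 10 lower, median -0.28) and Hnrnp (16 of 20 lower, median -0.20) lay below WT and Snrp above it (10 of 12 higher, median 0.16). Without replicate 1 labelled Carm1-/- the Srsf median was -0.12 (7 of 10 lower) and the Hnrnp median -0.13 (14 of 20 lower). With only the groups compared, limma called 0.0% of all genes in either direction. Without replicate 1 labelled Carm1-/- the fit of all groups called 549 genes, and no member was among them.

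Set directly against each other, the Carm1-/- labelled libraries had lower values than the H3R17H-labelled ones for 44 of 64 members, with a median difference of -0.14 against -0.01 over all tested genes. Again no member passed (0.0% of all tested genes in limma, lowest adjusted p of a member 0.489, and 0.0% with only the groups compared). Unadjusted p was under 0.05 for 2 higher members (3.12% against 4.09%) and 4 lower members (6.25% against 4.12%). Groups did not overlap for 2 higher (3.12% against 5.13%) and 10 lower members (15.6% against 6.07%). All 12 Snrp genes were on the lower side (median -0.34), as were 9 of 10 Srsf genes (median -0.14). The Srsf median ran from -0.33 without replicate 3 labelled Carm1-/- to -0.08 without replicate 1 labelled H3R17H, with 7 to 10 genes lower except without replicate 1 labelled Carm1-/-, where 6 were.

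**Figure D2:**
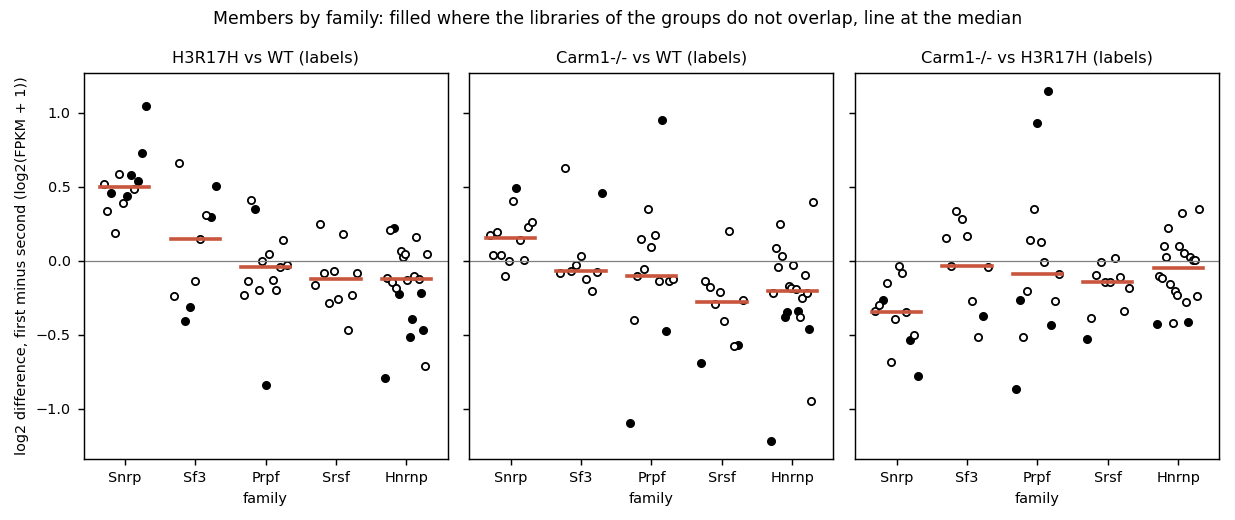
Log2 difference of every member in the 3 comparisons, by family; filled points are members whose libraries do not overlap between the groups, and red lines are family medians. The Snrp median lies at 0.50 in H3R17H vs WT, at 0.16 in Carm1-/- vs WT and at -0.34 in Carm1-/- vs H3R17H.

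The 7 Sm core genes encode the proteins of the Sm ring. Snrpg (chromosome 6, 86371304 to 86379328, plus strand, GRCm38) had WT values of 222, 349 and 221 FPKM, H3R17H-labelled values of 487, 597 and 518 FPKM and Carm1-/- labelled values of 180.2, 430.5 and 381 FPKM. All libraries labelled H3R17H lay above all WT libraries, and replicate 1 labelled Carm1-/- lay below them. The difference of H3R17H vs WT was 1.04 (SE 0.32, limma adjusted p = 0.243), and its adjusted p ran from 0.0434 to 0.736 over the alternatives. It passed when only these groups were fitted, and also when replicate 1 labelled Carm1-/- was left out (adjusted p = 0.0467), and with a sex term the difference was 0.59. With only the groups compared it no longer passed once replicate 1, 2 or 3 labelled H3R17H was left out (adjusted p = 0.0809, 0.129 and 0.0578). In Carm1-/- vs H3R17H it was -0.78 (SE 0.32, adjusted p = 0.572), and -0.39 without replicate 1 labelled Carm1-/-.

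Snrpf (chromosome 10, 93583029 to 93589706, minus strand) had WT values of 104, 168 and 104 FPKM, H3R17H-labelled values of 194, 229 and 188 FPKM and Carm1-/- labelled values of 90.9, 191 and 169 FPKM. The difference of H3R17H vs WT was 0.73 (SE 0.30, adjusted p = 0.329), and the groups did not overlap. Snrpd3 (chromosome 10, 75517551 to 75537381, plus strand) was the Sm gene with all 6 edited libraries above WT. Its values were 32.5, 33.1 and 38 FPKM in WT, 54.0, 58.4 and 44.2 FPKM in the H3R17H-labelled libraries and 41.6, 54.5 and 51.6 FPKM in the Carm1-/- labelled ones. The differences from WT were 0.58 (SE 0.22, adjusted p = 0.301) and 0.49 (SE 0.22, adjusted p = 0.428).

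Snrpb, whose product is a CARM1 substrate, had WT values of 309, 273 and 229 FPKM and H3R17H-labelled values of 371, 372 and 366 FPKM, with an SD of 3.42 FPKM. It stood at 244, 359 and 333 FPKM in the Carm1-/- labelled ones, within or above the WT range. Its difference of H3R17H vs WT was 0.46 (SE 0.20, adjusted p = 0.346). Snrpd2 stood at 396, 426 and 393 FPKM in the H3R17H-labelled libraries, above its WT values, and at 262, 546 and 432 FPKM in the Carm1-/- labelled ones, where replicate 1 lay just below WT and the others above it. Snrpe stood at 732, 570.1 and 646 FPKM and at 371, 585 and 604 FPKM in the 2 edited groups, and both overlapped WT. Snrpd1 had a mean of 125 ± 11.8 FPKM in WT, of 165 ± 27.8 in the H3R17H-labelled libraries and 126 ± 19.6 FPKM in the Carm1-/- labelled ones (SD, n = 3).

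The other Snrp genes encode proteins particular to the U1 and U2 snRNPs, and Snrpert is a copy without introns. Snrpc, a U1 snRNP gene and another CARM1 substrate, had WT values of 68.1, 74.2 and 60.1 FPKM, H3R17H-labelled values of 172, 85.7 and 70.2 FPKM and Carm1-/- labelled values of 61.5, 76.2 and 52.3 FPKM. Its difference of 0.59 (SE 0.32, adjusted p = 0.426) in H3R17H vs WT thus came mainly from replicate 1. Snrpa, of the U1 snRNP, and Snrpa1 and Snrpb2, of the U2 snRNP, differed in that comparison by 0.52, 0.34 and 0.19, with overlapping groups. Snrpa1 was the most scattered of them, from 78.6 to 422 FPKM within the Carm1-/- labelled libraries. Snrpert, at 26.8, 38 and 30.1 FPKM in WT and 53.5, 39.6 and 45.6 FPKM in the H3R17H-labelled libraries, is annotated as a processed pseudogene on chromosome 2. Of its 279 bases 276 (98.9%) are identical to the Snrpe transcript, so the reads of the 2 genes may have been shared and the values of Snrpert are uncertain; in the Carm1-/- labelled libraries it stood at 29.2, 33.3 and 32.0 FPKM.

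**Figure D3:**
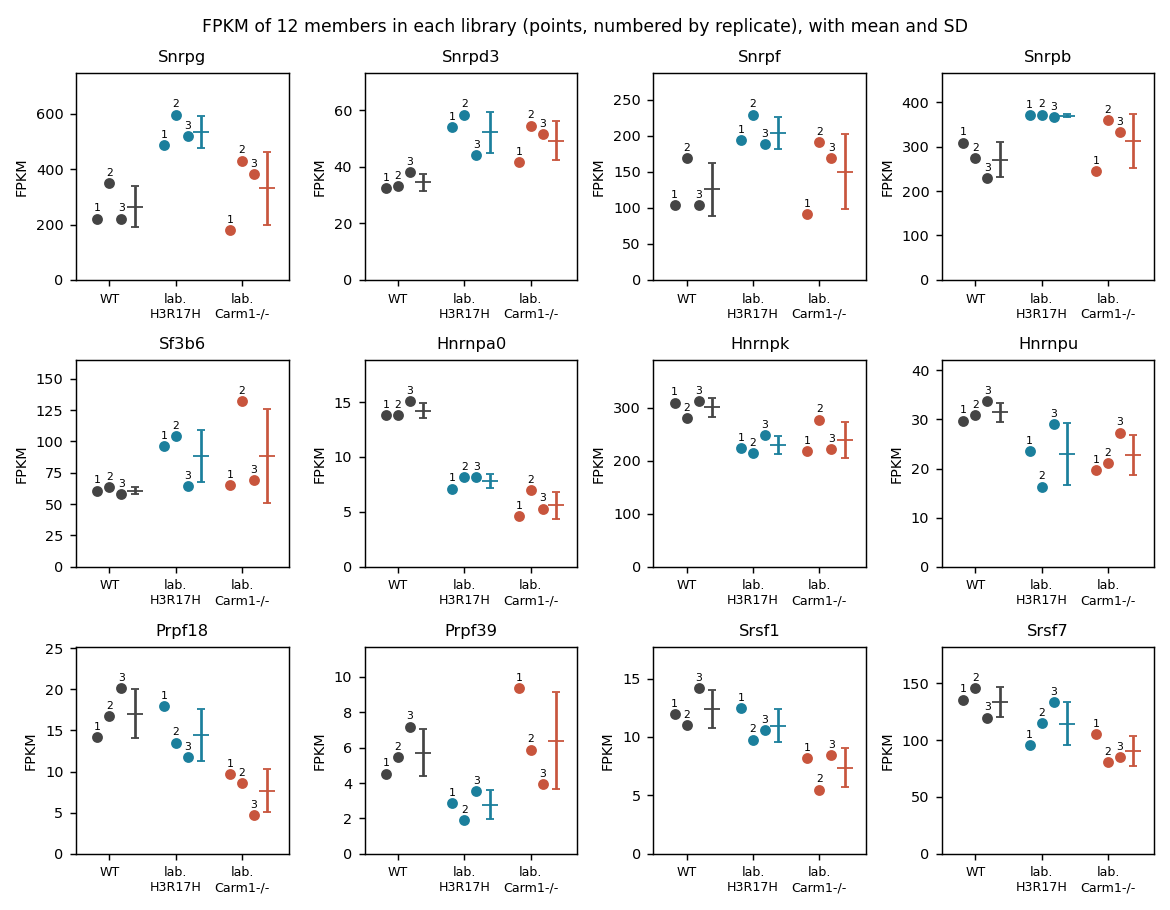
FPKM of 12 members in each library (points, numbered by replicate) with group mean and SD of 3 libraries beside them, on axes that start at 0. Snrpg, Snrpf and Snrpb are above WT in all libraries labelled H3R17H and near or below WT in replicate 1 labelled Carm1-/-, while Hnrnpa0 is below WT in all 6 edited libraries.

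Taken library by library, the Snrp family was split within the group labelled Carm1-/-. Its median difference from the WT mean was -0.08, 0.14 and -0.12 in WT replicates 1 to 3, 0.56, 0.50 and 0.42 in the H3R17H-labelled libraries and -0.21, 0.38 and 0.36 in the Carm1-/- labelled ones. Replicate 1 labelled Carm1-/- thus lay below WT, with 5 of 12 Snrp genes below all WT libraries and 1 above, while in the other 5 edited libraries 7 to 10 of the 12 lay above all WT libraries. Over all tested genes 31.9% lay below and 29.4% above all WT libraries in that replicate, so 5 of 12 is near the background, and 30.4% to 34.4% lay above in the other 5. Replicate 1 labelled Carm1-/- had the lowest value of all 9 for 19 of 64 members, 29.7% of them, against 13.4% of all tested genes. Without it the Snrp median was 0.37 in Carm1-/- vs WT (11 of 12 higher) and -0.13 in Carm1-/- vs H3R17H (9 of 12 lower); without replicate 2 or 3 of that label the median against WT was 0.02 and 0.05, and without WT replicate 3 it was 0.095 (7 of 12 higher).

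Some other measures moved with this pattern. The trophectoderm markers had medians of -1.06, -1.29 and -0.38 in the H3R17H-labelled libraries and of 0.38, -1.56 and -1.24 in the Carm1-/- labelled ones, so that replicate 1 labelled Carm1-/- was apart in both lists. The 10 tested primitive endoderm markers had medians of -0.49, -0.29 and -0.715 in the former and of -0.03, -0.65 and -0.73 in the latter, again with replicate 1 near WT. The 12 epiblast markers had medians of 0.07, -0.50 and -0.24 in the H3R17H-labelled libraries, -0.39, 0.41 and 0.03 in the Carm1-/- labelled ones and -0.32 to 0.17 in WT. They thus did not share the pattern in the H3R17H-labelled libraries. The part of these lists in the Snrp values was not tested. Replicate 1 labelled H3R17H, the library of its group with Y-linked transcripts, had the highest Snrp median of all (0.56), and 10 of 12 Snrp genes lay above WT there, against 33.6% of all tested genes. This library also held 4.84 FPKM of Xist, the RNA of X inactivation, against 0.19 to 0.43 FPKM in WT, so its sex is unclear. A sex term, with this library set as Y-positive like all of WT, rests only on replicate 1 against the others within the edited groups. With a sex term the Snrp median of H3R17H vs WT was 0.32, with 11 of 12 genes higher, and that of Carm1-/- vs WT was 0.02, with 7 of 12 higher. Ribosomal protein genes, also small and highly expressed, had medians (82 genes) of 0.40, 0.53 and 0.42 in the H3R17H-labelled libraries and of -0.34, 0.61 and 0.32 in the Carm1-/- labelled ones. The summed FPKM of a library lay between 554257 and 567858 in the 5 edited libraries with high Snrp medians and between 521143 and 541116 in WT and replicate 1 labelled Carm1-/-.

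**Figure D4:**
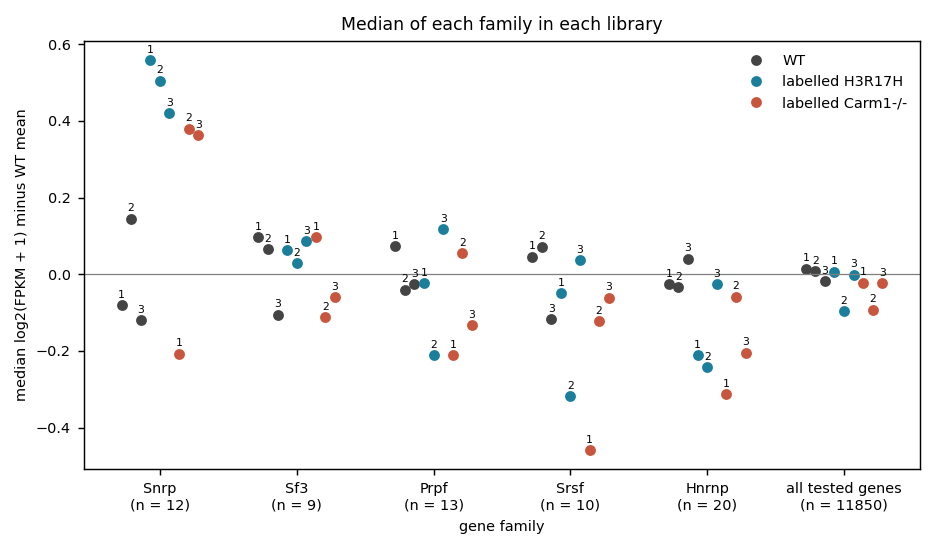
Median of each family in each library, relative to the WT mean of log2(FPKM + 1); colours are labels and digits are replicates, beside all 11850 tested genes. The Snrp medians are 0.42 to 0.56 in the H3R17H-labelled libraries, 0.38 and 0.36 in replicates 2 and 3 labelled Carm1-/- and -0.21 in replicate 1.

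The Sf3 genes encode the subunits that anchor the U2 snRNP at the branch point, and they divided within the complex. In H3R17H vs WT 5 of 9 had higher and 4 lower values (median 0.15). This median turned to -0.12 without WT replicate 3 and was 0.27 to 0.29 without either other WT replicate. Sf3b5 stood at 381, 377 and 345 FPKM in the H3R17H-labelled libraries, against 266 to 319 in WT and 295, 276 and 279 FPKM in the Carm1-/- labelled ones. Its differences were 0.30 (SE 0.17, adjusted p = 0.433) in H3R17H vs WT and -0.37 (SE 0.17, adjusted p = 0.595) in Carm1-/- vs H3R17H, without overlap in either.

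Sf3b6, whose product contacts the branch point adenosine, was the member of this family with all 6 edited libraries above WT. It had WT values of 60.9, 63.6 and 58.0 FPKM, H3R17H-labelled values of 96.2, 104 and 64.6 FPKM and Carm1-/- labelled values of 65.1, 132 and 69.0 FPKM. Differences from WT were 0.50 (SE 0.30, adjusted p = 0.464) and 0.46 (SE 0.30, adjusted p = 0.552), and the latter was 0.14 without replicate 2. Sf3a3 and Sf3b1 lay on the other side in H3R17H vs WT. Sf3a3 had WT values of 97.2, 97.3 and 89.6 FPKM and H3R17H-labelled values of 70.7, 70.1 and 72.7 FPKM, a difference of -0.41 (SE 0.24, adjusted p = 0.468). In the Carm1-/- labelled ones it was spread around the WT values, at 97.2, 62.8 and 119 FPKM. Sf3b1, the scaffold of SF3B, had a mean of 60.7 ± 5.7 FPKM in WT and of 48.7 ± 5.01 in the H3R17H-labelled libraries, also without overlap (-0.31, adjusted p = 0.592). Sf3b4, the CARM1 substrate of this family, had WT values of 75.0, 58.8 and 33.9 FPKM, H3R17H-labelled values of 72.5, 54.2 and 73.0 FPKM and Carm1-/- labelled values of 67.4, 30.7 and 46.6 FPKM, with wide overlap. Neither Sf3a1, Sf3a2, Sf3b2 nor Sf3b3 separated from WT in either edited group, and Sf3a2 reached its highest value, 11.8 FPKM, in replicate 1 labelled Carm1-/-.

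The Prpf genes act at several steps and had no common direction, with medians of -0.04, -0.10 and -0.09 in the 3 comparisons and 5 of 13 higher in each. The first turned to 0.06 without WT replicate 1 and the second to 0.02 without WT replicate 3. Prpf18, a second-step factor, had WT values of 14.2, 16.8 and 20.1 FPKM, H3R17H-labelled values of 17.9, 13.5 and 11.8 FPKM and Carm1-/- labelled values of 9.67, 8.61 and 4.68 FPKM. Every library labelled Carm1-/- lay below the other 6, with differences of -1.10 from WT (SE 0.32, adjusted p = 0.270) and -0.86 from H3R17H (SE 0.32, adjusted p = 0.547). Prpf39, a homologue of a yeast U1 snRNP protein, was low in the other group. It had WT values of 4.53, 5.45 and 7.19 FPKM, H3R17H-labelled values of 2.86, 1.90 and 3.53 FPKM and Carm1-/- labelled values of 9.36, 5.89 and 3.93 FPKM. The difference of H3R17H vs WT was -0.84 (SE 0.36, adjusted p = 0.343) and that of Carm1-/- vs H3R17H was 0.93 (SE 0.36, adjusted p = 0.563).

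Prpf40b, a homologue of another yeast U1 snRNP protein and the lowest member, had WT values of 0.91, 1.21 and 1.0 FPKM and H3R17H-labelled values of 0.62, 0.38 and 1.5 FPKM. It was above both in the Carm1-/- labelled libraries, at 1.81, 2.61 and 5.01 FPKM, with differences of 0.95 from WT (SE 0.38, adjusted p = 0.392) and 1.15 from H3R17H (SE 0.38, adjusted p = 0.489). At such levels the added 1 FPKM makes the difference smaller than the fold in FPKM. Prpf31, a tri-snRNP protein, had a mean of 51.8 ± 5.07 FPKM in WT and of 66.3 ± 6.44 in the H3R17H-labelled libraries (SD, n = 3) without overlap, and Prpf4b, a kinase, averaged 3.63 ± 0.39 in WT and 2.4 ± 0.77 FPKM in the Carm1-/- labelled ones, also without overlap. Prpf8, the large protein at the centre of the spliceosome, differed from WT by -0.03 (SE 0.25) and -0.12 (SE 0.25), with overlapping libraries. The remaining 7, among them Prpf3, Prpf4 and Prpf6 of the tri-snRNP, overlapped WT in both edited groups, with differences between -0.40 and 0.41.

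The Srsf genes encode the classical SR proteins and their relatives, and most had lower values in both edited groups, less so without the libraries named above. In H3R17H vs WT 8 of 10 were lower and none was without overlap. In Carm1-/- vs WT 9 of 10 were lower, and the libraries did not overlap for Srsf1 and Srsf7. Srsf1, the prototype SR protein, had WT values of 11.9, 11.0 and 14.2 FPKM, H3R17H-labelled values of 12.5, 9.77 and 10.6 FPKM and Carm1-/- labelled values of 8.22, 5.48 and 8.44 FPKM. Its difference of Carm1-/- vs WT was -0.69 (SE 0.28, adjusted p = 0.395). Srsf7, which also takes part in 3' end processing and export, had WT values of 136, 146 and 119.9 FPKM, H3R17H-labelled values of 95.4, 115 and 133 FPKM and Carm1-/- labelled values of 105, 80.8 and 84.8 FPKM. The difference from WT was -0.57 (SE 0.21, adjusted p = 0.364) in the latter. Srsf6 had the widest scatter of the family, from 24.2 to 74.3 FPKM within the Carm1-/- labelled libraries, and Srsf5 was the SR gene with a higher mean in both edited groups (80.3 and 80.8 against 70.5 FPKM in WT). The family median by library was lowest in replicate 1 labelled Carm1-/- (-0.46) and replicate 2 labelled H3R17H (-0.32) and lay between -0.12 and 0.07 in the other 7 libraries.

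Among the Hnrnp genes, Hnrnpa0 had the largest difference from WT with separated libraries in both edited groups. Hnrnpa0 (chromosome 13, 58125879 to 58128556, minus strand), an hnRNP of the A and B type, had WT values of 13.8, 13.8 and 15.1 FPKM, H3R17H-labelled values of 7.11, 8.20 and 8.17 FPKM and Carm1-/- labelled values of 4.59, 6.97 and 5.29 FPKM. The 3 groups did not overlap with each other. Differences from WT were -0.79 (SE 0.27, adjusted p = 0.263) and -1.22 (SE 0.27, adjusted p = 0.196), with adjusted p from 0.0786 to 0.688 and from 0.0548 to 0.839 over the alternatives. Hnrnpk (chromosome 13, 58391142 to 58403343, minus strand) stood at 225, 215 and 249 FPKM in the H3R17H-labelled libraries and at 218, 278 and 222 FPKM in the Carm1-/- labelled ones, all below its lowest WT value of 281 FPKM. Its differences were -0.39 (SE 0.18, adjusted p = 0.354) and -0.34 (SE 0.18, adjusted p = 0.485).

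Hnrnpu, a nuclear scaffold protein that binds Xist RNA, had WT values of 29.7, 30.9 and 33.7 FPKM, H3R17H-labelled values of 23.5, 16.3 and 29.1 FPKM and Carm1-/- labelled values of 19.7, 21.1 and 27.3 FPKM. Hnrnpd, known for binding AU-rich elements, stood at 5.91, 5.52 and 6.66 FPKM in WT, 5.01, 5.15 and 4.83 FPKM in the first edited group and 3.28, 4.66 and 5.44 FPKM in the second. For both, all 6 edited libraries lay below WT, though for Hnrnpd the nearest pair stood at 5.44 and 5.52 FPKM. Over all members, 2 genes (Snrpd3 and Sf3b6) had all 6 edited libraries above WT, 3.12% of the members against 2.6% of all tested genes, and 4 (Hnrnpa0, Hnrnpk, Hnrnpu and Hnrnpd) had all 6 below, 6.25% against 4.34%.

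Hnrnph3, a member of the group that binds G-rich sequence, had WT values of 26.5, 30.0 and 25.4 FPKM, H3R17H-labelled values of 16.6, 16.9 and 23.6 FPKM and Carm1-/- labelled values of 21.0, 27.6 and 23.2 FPKM. Its difference of H3R17H vs WT was -0.51 (SE 0.24, adjusted p = 0.369), without overlap. The most abundant hnRNP gene, Hnrnpa1, stood at 387, 435 and 417 FPKM in the H3R17H-labelled libraries and at 232, 469 and 517 FPKM in the Carm1-/- labelled ones, around its WT values. Hnrnpab was the hnRNP gene above WT without overlap in the H3R17H-labelled libraries, with 57.2 ± 8.14 against 48.6 ± 2.12 FPKM, and Hnrnpdl and Hnrnpr were separated from WT in 1 group each, both lower. Hnrnpul1 scattered most, from 0.33 to 8.25 FPKM over the 9 libraries. The other 10 hnRNP genes overlapped WT in both edited groups, with differences between -0.38 and 0.40.

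Genes that work with the members, taken from fixed lists, gave no call either: 0 of 125 tested genes in 6 lists passed in the same limma fit in any of the 3 comparisons, and few had an unadjusted p under 0.05. These were 3 higher and 7 lower in H3R17H vs WT (2.4% and 5.6%, against 6.41% and 7.75% of all tested genes), 2 and 8 in Carm1-/- vs WT (1.6% and 6.4%, against 5.25% and 6.19%) and 0 and 7 in Carm1-/- vs H3R17H (0.0% and 5.6%, against 4.09% and 4.12%). Among 20 Sm-like and snRNP assembly genes 15 had higher values in H3R17H vs WT (median 0.16), 11 in Carm1-/- vs WT (0.07) and 8 in Carm1-/- vs H3R17H (-0.07). Prmt5, the methyltransferase of the Sm proteins, had WT values of 86.3, 61.0 and 58.5 FPKM, H3R17H-labelled values of 98.5, 179 and 122 FPKM and Carm1-/- labelled values of 79.4, 134 and 124 FPKM. It was above WT without overlap in the first group (0.93, SE 0.29, adjusted p = 0.247), and in the second replicate 1 lay within WT (0.69, SE 0.29, adjusted p = 0.410). Lsm8, of the ring on U6 snRNA, differed by 0.76 (SE 0.30, adjusted p = 0.312) in H3R17H vs WT. The 35 other core spliceosome genes were balanced, with 20, 18 and 16 higher in the 3 comparisons and medians of 0.04, 0.02 and -0.04. The 8 minor spliceosome genes had 6, 3 and 2 higher, with medians of 0.08, -0.06 and -0.23. Of 16 exon junction and nonsense-mediated decay genes 12, 8 and 2 were higher, with medians of 0.30, 0.00 and -0.24.

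Of 35 other splicing regulators 22 had lower values in H3R17H vs WT, 26 in Carm1-/- vs WT and 22 in Carm1-/- vs H3R17H, with medians of -0.11, -0.21 and -0.18. Pcbp2, a relative of Hnrnpk, had WT values of 31.2, 33.0 and 29.4 FPKM and H3R17H-labelled values of 19.5, 18.2 and 17.3 FPKM, a difference of -0.74 (SE 0.23, adjusted p = 0.247). Esrp1, an epithelial splicing regulator, had WT values of 11.7, 10.7 and 15.7 FPKM and Carm1-/- labelled values of 6.88, 1.02 and 7.16 FPKM (-1.42, SE 0.55, adjusted p = 0.388). Raver1, whose product binds the splicing repressor PTBP1, had a listed value of 0 in each of the 3 libraries of the Carm1-/- label, against 3.68 to 8.12 FPKM in the other 6. Its differences were -2.68 in Carm1-/- vs WT (SE 0.34, limma adjusted p = 0.109) and -2.69 in Carm1-/- vs H3R17H (SE 0.34, limma adjusted p = 0.0522). No tested gene had a lower adjusted p in either comparison. Among 11 SR protein kinases and phosphatases 7, 8 and 5 were lower, and Ppp1cb, a catalytic subunit of protein phosphatase 1, was lower without overlap in both edited groups (-0.97 and -1.20, adjusted p = 0.278 and 0.266).

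Most members with a short coding sequence had higher values in H3R17H vs WT, though most of the higher members were longer. Of the 10 members with at most 600 coding bases (6 Sm core genes, Snrpc, Sf3b5, Sf3b6 and Srsf3), all but Srsf3 had higher values in H3R17H vs WT with a median of 0.49. The 30 members of over 600 and up to 1500 bases had a median of -0.10 (14 higher), and the 23 longer ones of -0.12 (7 higher). Over all tested genes of these lengths the medians were -0.065 (45.4% higher) and -0.112 (41.5% higher). Short genes in general were nearer to 0: the median was 0.05 over 1457 other tested genes of at most 600 coding bases, and 0.03 over the 1401 of these that are not ribosomal protein genes. The 82 ribosomal protein genes had a median of 0.45, with 80 higher. In Carm1-/- vs WT the medians of the short members, the other short genes and the ribosomal protein genes were 0.18, 0.03 and 0.19, and in Carm1-/- vs H3R17H they were -0.36, -0.01 and -0.29. These classes were drawn after the values had been seen, and a coding length was found for 63 of 64 members and 83.1% of tested genes.

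Promoters are shown for the Sm genes Snrpg, Snrpd3 and Snrpf and for Hnrnpa0 and Hnrnpk, members whose H3R17H-labelled libraries lay apart from WT, the first 3 above it and the others below. The RefSeq start used here can lie inside the GENCODE gene span given above. The stretches of Snrpg, Snrpd3 and Hnrnpk lie within that span, that of Snrpf overlaps it in part and that of Hnrnpa0 lies outside it. Each line gives the 150 bases before the RefSeq start, read 5′ to 3′ on the strand of the gene (GRCm38.p6), with matches to any of 5 motifs in capitals, on either strand: CCGGAAG (the core of ETS factor sites), GGGCGG (the GC box), CCAAT (the CCAAT box), CACGTG (an E-box, the same on both strands) and TATAAA (the TATA box).
Snrpg (chr6:86371390-86371539, plus strand): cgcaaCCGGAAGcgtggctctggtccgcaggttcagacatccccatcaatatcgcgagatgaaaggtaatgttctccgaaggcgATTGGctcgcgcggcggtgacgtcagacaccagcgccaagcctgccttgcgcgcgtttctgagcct
Snrpd3 (chr10:75517892-75518041, plus strand): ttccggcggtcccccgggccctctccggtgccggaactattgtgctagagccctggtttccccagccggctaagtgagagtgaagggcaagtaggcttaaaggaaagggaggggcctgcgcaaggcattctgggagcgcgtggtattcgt
Snrpf (chr10:93589659-93589808, minus strand): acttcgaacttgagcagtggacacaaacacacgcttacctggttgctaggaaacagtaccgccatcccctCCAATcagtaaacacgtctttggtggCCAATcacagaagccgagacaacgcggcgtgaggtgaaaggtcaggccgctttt
Hnrnpa0 (chr13:58128557-58128706, minus strand): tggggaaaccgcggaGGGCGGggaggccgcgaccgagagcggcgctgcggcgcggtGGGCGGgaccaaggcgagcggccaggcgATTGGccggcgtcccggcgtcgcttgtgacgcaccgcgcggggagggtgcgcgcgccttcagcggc
Hnrnpk (chr13:58402118-58402267, minus strand): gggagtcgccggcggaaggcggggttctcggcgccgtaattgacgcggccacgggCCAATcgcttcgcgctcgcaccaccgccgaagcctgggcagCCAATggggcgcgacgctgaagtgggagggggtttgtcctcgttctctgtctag

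Snrpg held CCGGAAG with its first base at -145 and ATTGG at -66, counted back from the start. Snrpf held CCAAT at -80 and -54, and Hnrnpk at -95 and -54. Hnrnpa0, the richest in G and C of the 5 (79.3%), held GGGCGG at -135 and -94 and ATTGG at -66, and Snrpd3 held none of the 5 motifs in this stretch. The full windows of the reference ran from 250 bases before to 50 after the start. In them CCGGAAG on either strand was in 20 of 55 members found there (36.4%). It was in 22.0% of 8391 tested genes and 9.9% of all 27025 genes with a promoter there. By family it was in 6 of 7 Sf3, 4 of 9 Snrp, 4 of 11 Prpf, 4 of 10 Srsf and 2 of 18 Hnrnp genes. GGGCGG was in 69.1% of members, 67.3% of tested genes and 38.2% of all these genes, and CCAAT in 50.9%, 43.6% and 41.1%. CACGTG was in 16.4%, 11.9% and 8.1%, and TATAAA in 10.9%, 8.4% and 15.7%. No 2 matches overlap in the printed stretches, and a match is a description of the sequence and not of a bound site.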

How the data were processed

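RNA was measured in 9 libraries, 3 for each label, grouped by sample title. The authors deposited FPKM values in 1 table whose headers match the sample descriptions, though not the genotypes in the titles. Per the submitters' processing notes, the aligner listed is Bowtie 0.12.2 and the builds are mm10 and GRCm38; which quantifier and annotation were used is not given in the sources used here. Because FPKM is relative to the library, very abundant genes lower the values of the rest, and near-identical genes can share reads. No counting interval can be given, since depth is unknown.

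All 9 libraries entered 1 limma fit with an intensity trend on log2(FPKM + 1), over the 11850 genes that reached 1 FPKM in 3 or more libraries. Differences are on that scale and understate the change of low genes. P-values were adjusted by Benjamini-Hochberg over all tested genes, with a threshold of 0.05. The members and lists were chosen with earlier results of these data known. Values in every library are given for the 5 members highest in WT and for Snrpb, Snrpc and Sf3b4. They are also given for the 4 higher and 4 lower members with the smallest p in each comparison. The same holds for members whose 6 edited libraries all lay to 1 side of WT. Members at 0 in a library were to be added if they reached 5 FPKM in WT, but no member was at 0 in any library. Further genes were named after their values were seen. Alternatives were a pseudocount of 0.1 or 5, a filter at a mean of 5 FPKM or none, quantile normalization, median-of-ratios scaling, array weights, a fit without the trend, only the groups compared, a replicate block, a sex term and each library left out; leaving out a library with only the groups compared was added after seeing the data. The fit was tested on simulated data.

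Positions and coding lengths are from GENCODE M21 (GRCm38), matched by symbol, and promoters from RefSeq (GRCm38.p6), which held 55 of the 64 members. Tools were R 4.3.3, limma 3.58.1, Python 3.11.15, pandas 2.3.3, numpy 2.4.6 and matplotlib 3.10.9.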

Additional observations from a re-analysis of the deposited data

How the results depend on the processing

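Direction and side of the threshold held for most results. No member passed in Carm1-/- vs WT or Carm1-/- vs H3R17H under any alternative run (0 to 0 with each library left out). Other genes did: without replicate 1 labelled Carm1-/-, 549 genes in all passed in Carm1-/- vs WT. With only the groups compared and that library left out, 429 genes passed there. In H3R17H vs WT 1 member, Snrpg, passed with only the groups compared (240 genes in all) and 1 without replicate 1 labelled Carm1-/- (125 genes in all). Without replicate 2 or 3 of that label no member passed (4 and 0 genes in all). With a library left out the count of members ran from 0 to 1. The members' median in H3R17H vs WT was 0.046 without replicate 2 labelled H3R17H, alone or with only the groups compared, and ran from -0.072 to 0.046 with a library left out. In Carm1-/- vs WT it ran from -0.123 to -0.057 and in Carm1-/- vs H3R17H from -0.231 to -0.069. The Snrp median ran from 0.447 to 0.554, from 0.023 to 0.370 and from -0.464 to -0.129 in the 3 comparisons, and was 0.321 with a sex term in H3R17H vs WT. The Sf3 median in that comparison ran from -0.119, without WT replicate 3, to 0.293. The causes were not tested.

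The replicate numbers did not pair the libraries: deviations of same-numbered libraries correlated by -0.05 to 0.183 across genes. With the number as a replicate block 0 members passed in each comparison. Such a block cannot change a difference of group means in this balanced layout, so the members' medians of -0.035, -0.099 and -0.143 were the same by construction. FPKM carries no depth, so what low members such as Prpf40b could show is unknown.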

Other observations

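The members made up 0.928% to 0.955% of the summed FPKM of a WT library and 1.02% to 1.06% in the libraries labelled H3R17H. In those labelled Carm1-/- the share was 0.760%, 1.05% and 0.967%. Replicate 2 labelled Carm1-/- held the highest value of all 9 libraries for 13 of 64 members (20.3%, against 16.6% of all tested genes) and the lowest for 14 (21.9% against 19.4%), both near the background. Within the hnRNP family, Hnrnpa2b1 stood at 61.6 FPKM in that library against 26.4 to 42.3 FPKM in the other 8, and Hnrnpc at 248 FPKM against 129 to 213 FPKM. Snrpa1 was at 422 FPKM there and at 78.6 FPKM in replicate 1 of the same label, the highest and lowest values of the gene. Snrpc stood at 172 FPKM in replicate 1 labelled H3R17H, against at most 85.7 FPKM elsewhere. These genes were chosen after their values were seen, and no explanation was tested.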
